A study of Homo sapiens with 6 samples.

Results

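The 31 genes of cholesterol synthesis, uptake and efflux were examined in DU-145-DR/tet-MUC1shRNA cells. By read counts, 16 of them were higher and 0 were lower after doxycycline (DOX) was used to silence MUC1. By the same test, 13% of all genes tested were higher and 13.7% were lower. On the deposited TPM values (reads scaled by transcript length and library), 0 of the 31 passed. The genes were taken from textbook pathway knowledge as a named list of enzymes, regulators and transporters. Earlier results of these data were known when the list was chosen. All 31 were present among the 28008 genes of the count table and passed the filter on low counts that left 14292 genes. They comprised 7 enzymes from acetyl-CoA to farnesyl diphosphate (the mevalonate pathway), 11 enzymes from squalene synthesis to cholesterol, 5 regulators of the SREBP system, 4 genes of uptake and intracellular transport, and 4 genes of LXR signalling and efflux.

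The libraries came from DU-145-DR cells, a derivative of the human prostate cancer line DU-145 selected by continuous docetaxel (DTX), carrying a DOX-inducible short hairpin RNA against MUC1. The DOX-negative group (n = 3) received the DMSO vehicle, and the DOX-positive group (n = 3) received 500 ng/ml DOX. Both groups therefore share DTX resistance and, as the study describes the line, the hairpin; the hairpin stands in the treatment label of the DOX-positive samples alone. The labels give no length of exposure, although the study states one for RNA-seq of this line. No DOX-treated culture with a control hairpin was analysed here. MUC1 silencing, effects of the hairpin on other transcripts and exposure to DOX therefore cannot be told apart.

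Library totals ranged from 15092691 to 23243713 counts. MUC1, the targeted gene, was counted 387, 484 and 396 times without DOX and 75, 74 and 66 times with DOX (log2 fold change -2.52, SE 0.146, adjusted p = 4.47e-11 in edgeR). The epithelial markers KRT8, KRT18, EPCAM and CDH1 were detected in every library. Their log2 fold changes were 0.84, 0.81, 1.43 and 0.92, and their part in the results for cholesterol genes was not tested. Of the neuroendocrine markers, CHGA had 0 counts in all 6 libraries and SYP had 2, 6 and 8 counts without DOX and 12, 9 and 11 with DOX. Of the markers of other cells, PTPRC (leukocytes) had at most 3 counts, PECAM1 (endothelium) at most 6 and DCN (fibroblasts) at most 1, while COL1A1 had between 66 and 96. In bulk RNA, a change in the number of cells that express a gene and a change in RNA per cell cannot be told apart.

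Cells make cholesterol from acetyl-CoA through mevalonate, farnesyl diphosphate and lanosterol. Supply is sensed in the endoplasmic reticulum, where INSIG proteins hold SCAP and the SREBP transcription factors when sterols are plentiful; when sterols are scarce, SCAP carries SREBPs to the Golgi, proteases release their active part, and genes of synthesis and uptake are transcribed. Excess sterol is sensed separately by the LXR receptors, which bind oxysterols and switch on the ABC transporters that move cholesterol out of the cell. These steps are regulated largely through protein processing and degradation, which messenger RNA does not measure.

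Of the 31 genes, 16 (51.6%) were higher with DOX at an adjusted p under 0.05 in edgeR's quasi-likelihood test and 15 did not pass. Over all genes tested, 26.7% passed in either direction, 13% were higher and 13.7% were lower. The median log2 fold change of the 31 genes was 0.284, against -0.00336 over all genes tested, and 28 of the 31 values were above 0. CPM values (counts scaled to the effective library size) did not overlap between the groups for 18 of the 31 genes (58.1%), all 18 higher with DOX, against 39.8% of all genes in either direction. These directions depended on the scaling: on the deposited TPM values (reads scaled by transcript length and library), limma called 0 of the 31 genes (1 at an unadjusted p under 0.05) and 3.13% of all genes. There the median log2 difference was -0.105 for the 31 genes and -0.321 over all genes, a difference of 0.217 between the medians. In the deposited TPM, 5 short noncoding RNAs held 51.2%, 34.4% and 62.8% of the total in the libraries without DOX and 64.4%, 60.7% and 60.5% in those with DOX. After rescaling TPM without those RNAs, limma called 15 of the 31 genes, all higher with DOX. The directions given for single genes are those of the counts, and 17 of them, each with a log2 fold change of at most 0.36, had the opposite sign on the deposited TPM. Among those 17, the genes that rose by counts were ACAT2, FDPS, MSMO1, NSDHL, DHCR7 and STARD4.

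**Figure D1:**
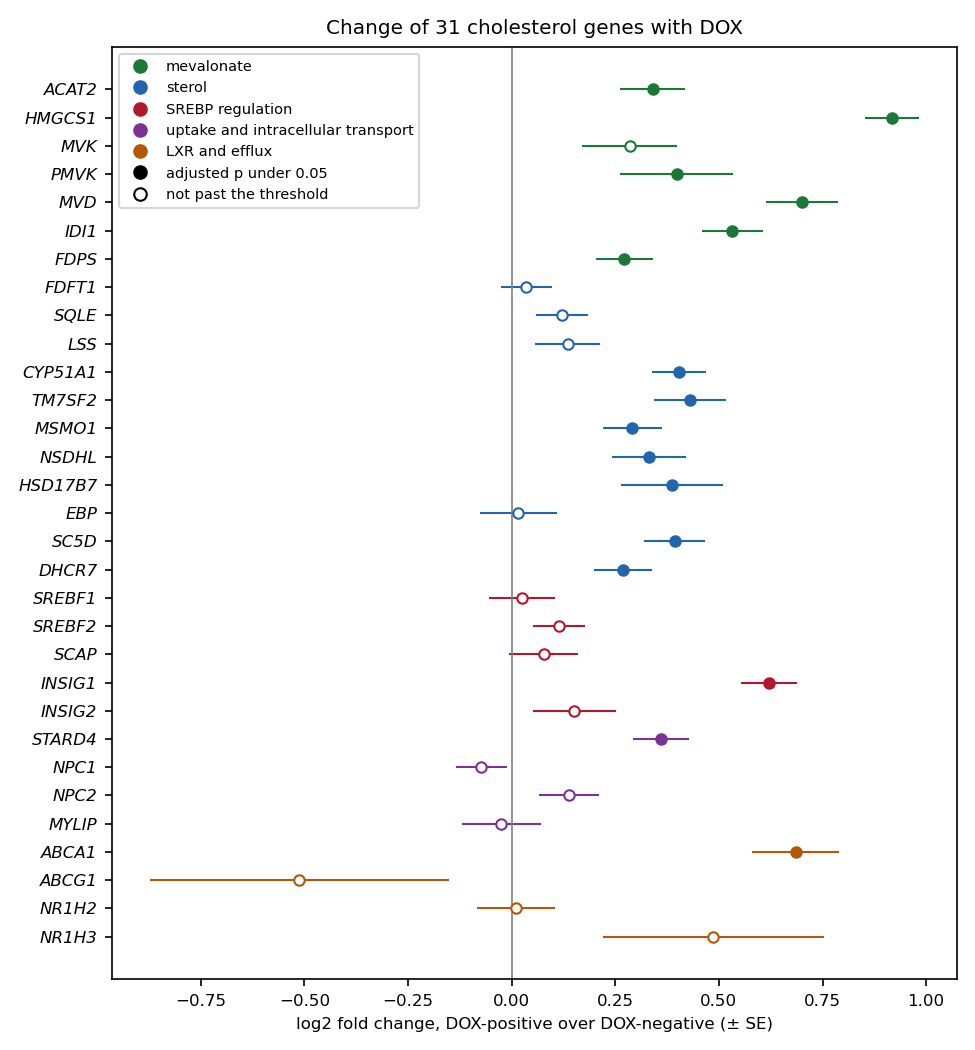
Log2 fold change of DOX-positive over DOX-negative cells (horizontal axis, from edgeR on counts, with SE bars, n = 3 per group) for the 31 genes in pathway order, coloured by role; filled points passed an adjusted p of 0.05. The 16 filled points are all to the right of 0 and 13 of them belong to the 18 enzymes of synthesis; on the deposited TPM 0 points would be filled.

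The enzymes of synthesis made up most of the genes that rose. Of the 7 mevalonate pathway genes 6 rose, with a median log2 fold change of 0.398, and of the 11 later enzymes 7 rose, with a median of 0.292. Together 13 of 18 enzymes passed and all 18 had log2 fold changes above 0. Outside synthesis, 1 of 5 SREBP regulators (INSIG1), 1 of 4 uptake and transport genes (STARD4) and 1 of 4 LXR and efflux genes (ABCA1) rose. For comparison, 13% of all genes tested were higher with DOX. Whether these shares differ between roles was not tested.

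HMGCS1, the synthase that condenses acetoacetyl-CoA with acetyl-CoA to HMG-CoA, had the highest log2 fold change of the 31 genes. Its level was 270.7, 277.6 and 285.6 CPM in the libraries without DOX and 480.3, 557.4 and 536.6 CPM in those with DOX. The groups were far apart, and the log2 fold change was 0.92 (SE 0.0651, adjusted p = 8.53e-10), an 88.8% rise. MVD decarboxylates mevalonate diphosphate to isopentenyl diphosphate. MVD was at 26.6, 28.1 and 28.6 CPM in DOX-negative cells and at 48.6, 43.7 and 43.1 CPM in DOX-positive cells, a log2 fold change of 0.70 (SE 0.0862, adjusted p = 2.74e-06). All 3 DOX-positive libraries lay above all 3 DOX-negative ones for MVD. IDI1, the isomerase that follows MVD, rose from 295.0, 248.7 and 307.4 CPM to 398.9, 439.3 and 392.7 CPM, a log2 fold change of 0.53 (SE 0.0736, adjusted p = 1.22e-05). DOX-negative replicate 2 was the lowest IDI1 library and no library of one group entered the range of the other.

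The remaining mevalonate genes moved less. ACAT2, the cytosolic thiolase that makes acetoacetyl-CoA, rose from 209.5 ± 29.8 to 265.3 ± 10.1 CPM (mean ± SD, n = 3), a log2 fold change of 0.34 (adjusted p = 0.00250). FDPS, which builds farnesyl diphosphate, rose from 206.7 ± 20.4 to 249.4 ± 5.996 CPM, a log2 fold change of 0.27 (adjusted p = 0.00522); without DOX-negative replicate 1 its adjusted p was 0.0628. PMVK and MVK are the kinases that phosphorylate mevalonate in succession. PMVK, the second kinase, rose from 8.57 ± 0.758 to 11.3 ± 1.01 CPM at 152 to 241 counts per library (log2 fold change 0.40, SE 0.136, adjusted p = 0.0337). This call was lost with DESeq2 (adjusted p = 0.0537), with total-count scaling (0.0528), with the replicate number as a block (0.0537), and without DOX-negative replicate 1 (0.100) or 2 (0.109) or DOX-positive replicate 2 (0.110) or 3 (0.0592). MVK, the first kinase, was at 16.6, 19.0 and 15.02 CPM without DOX and 22.0, 18.4 and 21.2 CPM with DOX, and did not pass (log2 fold change 0.28, SE 0.114, adjusted p = 0.0704). The MVK groups overlapped, since DOX-negative replicate 2 lay above DOX-positive replicate 2, and the gene passed without DOX-negative replicate 2 (adjusted p = 0.0302) or DOX-positive replicate 2 (0.0249).

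The 3 successive enzymes that turn farnesyl diphosphate into lanosterol did not pass. FDFT1, squalene synthase, was nearly level at 190.8, 195.8 and 209.2 CPM without DOX and 205.1, 199.7 and 205.7 CPM with DOX (log2 fold change 0.035, SE 0.0619, adjusted p = 0.724). SQLE, the epoxidase after it, was at 170.3, 162.1 and 173.2 against 192.4, 175.4 and 182.0 CPM, groups that did not overlap but were separated by a log2 fold change of 0.12 (SE 0.0636, adjusted p = 0.168). LSS, which closes the ring to lanosterol, had a log2 fold change of 0.13 (SE 0.0788, adjusted p = 0.220), and its DOX-positive replicate 2, at 97.2 CPM, lay among the DOX-negative libraries at 96.6, 97.2 and 107.7 CPM. Without that library LSS passed (adjusted p = 0.0307).

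Most of the listed enzymes after lanosterol rose. CYP51A1, the lanosterol 14-alpha-demethylase, rose from 2254, 2142 and 2362 CPM to 2987, 3027 and 2925 CPM, a log2 fold change of 0.40 (SE 0.0644, adjusted p = 6.96e-05). TM7SF2, a sterol C14-reductase that acts on its product, rose from 36.8, 34.2 and 31.7 CPM to 44.1, 49.7 and 44.4 CPM, a log2 fold change of 0.43 (SE 0.0871, adjusted p = 0.000801). Neither gene had overlapping groups. Next in order, MSMO1, the C4-methyl oxidase, rose by a log2 fold change of 0.29 (adjusted p = 0.00348), and NSDHL, the C4-decarboxylating dehydrogenase, by 0.33 (adjusted p = 0.00844). HSD17B7, the 3-ketoreductase of the same demethylation, rose from 20.8 ± 4.29 to 27.1 ± 1.95 CPM (log2 fold change 0.39, SE 0.122, adjusted p = 0.0218). Its DOX-negative replicate 2 was low at 16.1 CPM, and the HSD17B7 call was lost without that library (adjusted p = 0.135), without DOX-positive replicate 1 (0.0931) and on the rescaled TPM (0.0577).

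EBP, the sterol isomerase, was the exception among the late enzymes, at 42.5, 45.7 and 54.3 CPM without DOX and 51.5, 44.2 and 48.5 CPM with DOX (log2 fold change 0.016, SE 0.0925, adjusted p = 0.923). The EBP libraries overlapped throughout. SC5D, the C5-desaturase, rose from 177.1 ± 21.1 to 232.5 ± 5.05 CPM, a log2 fold change of 0.39 (adjusted p = 0.000391). DHCR7, the 7-dehydrocholesterol reductase, rose from 352.0 ± 26.8 to 423.9 ± 31.7 CPM, a log2 fold change of 0.27 (adjusted p = 0.00573), and missed the threshold without DOX-positive replicate 1 (adjusted p = 0.0559).

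**Figure D2:**
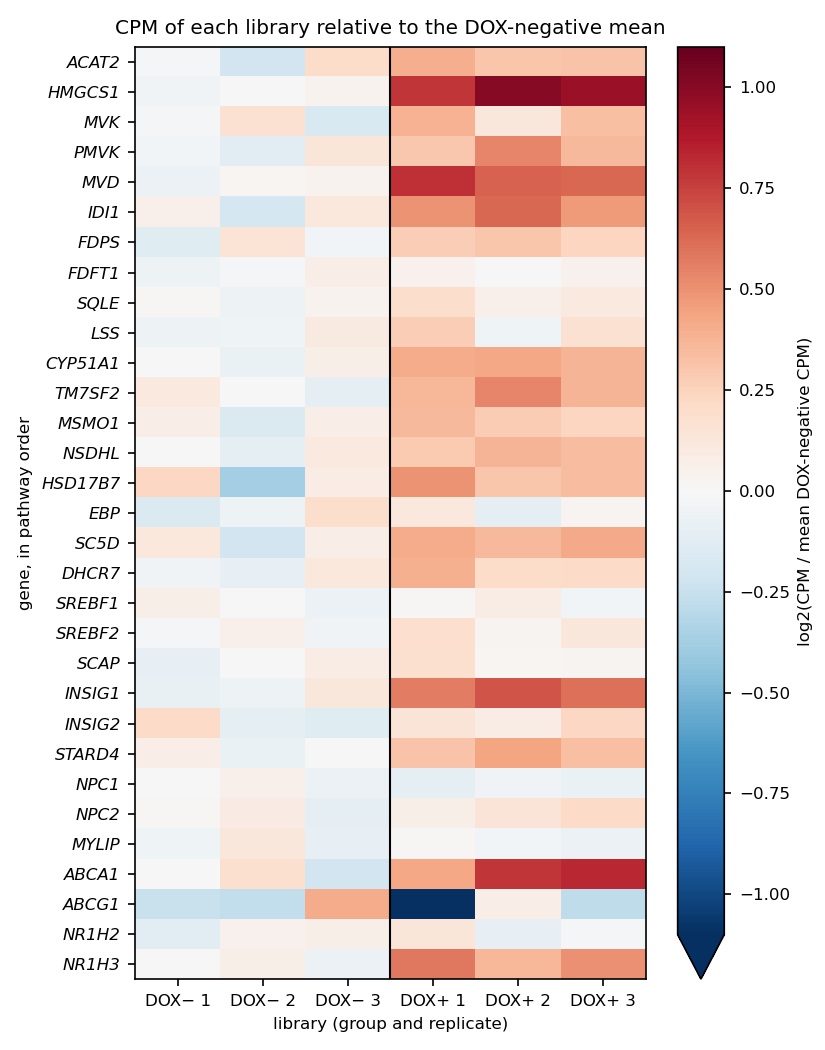
Log2 of each library's CPM over the mean DOX-negative CPM of the gene (colour), for the 31 genes in pathway order (rows) and the 6 libraries (columns, DOX-negative left of the line). The DOX-positive columns are above the DOX-negative mean for 29, 26 and 26 genes, and the DOX-negative columns for 13, 11 and 19. The share of all genes above that mean was not computed. ABCG1 in DOX-positive replicate 1 lies below the colour scale. Values are from counts; 17 of the 31 genes reverse on the deposited TPM.

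Library by library, the median log2 ratio of the 31 genes to their DOX-negative means was -0.0185, -0.0481 and 0.0684 in the libraries without DOX and 0.294, 0.282 and 0.237 in those with DOX. For the 18 enzymes alone, 18, 16 and 18 were above the DOX-negative mean in DOX-positive replicates 1 to 3. The count among DOX-negative libraries was 7, 3 and 15. DOX-negative replicate 3 was thus the highest of its group over the pathway, and it remained below each DOX-positive library in the median. The share of all genes above their DOX-negative mean was not computed for any library.

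Among the regulators, INSIG1 alone passed. INSIG1, itself a known SREBP target and the retention partner of SCAP, rose from 148.2, 151.0 and 171.0 CPM to 231.4, 252.6 and 239.0 CPM, a log2 fold change of 0.62 (SE 0.0677, adjusted p = 5.04e-07). Its paralogue INSIG2 was at 33.0, 26.5 and 26.0 CPM without DOX and 31.5, 30.1 and 33.3 CPM with DOX (log2 fold change 0.15, SE 0.100, adjusted p = 0.286), and the INSIG2 groups overlapped. The transcripts of the SREBP factors and their escort differed little: SREBF2, which encodes the factor that acts mainly on cholesterol genes, had a log2 fold change of 0.11 (SE 0.0632, adjusted p = 0.194). SREBF1, whose products act mainly on fatty acid genes, had 0.025 (SE 0.0798, adjusted p = 0.858), and SCAP 0.077 (SE 0.0835, adjusted p = 0.543). Each of these groups overlapped.

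Of the transport genes, STARD4, which moves sterol between membranes through the cytosol, rose from 117.7, 106.1 and 111.5 CPM to 138.9, 150.6 and 140.9 CPM (log2 fold change 0.36, SE 0.0669, adjusted p = 0.000345). The lysosomal exporters NPC1 and NPC2 hand cholesterol from endocytosed lipoprotein to other membranes. NPC1 stood at 799.3 ± 35.3 CPM in DOX-negative cells and 759.8 ± 16.1 CPM in DOX-positive cells (log2 fold change -0.073, adjusted p = 0.412), and NPC2 at 90.3 ± 6.05 and 99.5 ± 4.85 CPM (0.14, adjusted p = 0.167). MYLIP, a ubiquitin ligase and LXR target that degrades lipoprotein receptors, had a log2 fold change of -0.025 (SE 0.0954, adjusted p = 0.883).

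Of the efflux genes, ABCA1, the transporter that loads cholesterol onto apolipoprotein A-I, rose from 36.6, 41.2 and 31.6 CPM to 48.9, 62.8 and 64.6 CPM, a log2 fold change of 0.69 (SE 0.106, adjusted p = 4.57e-05). The lowest DOX-positive ABCA1 library was above the highest DOX-negative one. ABCG1, which passes cholesterol to high-density lipoprotein, was read at only 35, 37 and 61 counts without DOX and 15, 46 and 28 with DOX, and its log2 fold change of -0.51 had an SE of 0.360 (adjusted p = 0.319). The ABCG1 groups overlapped, with DOX-positive replicate 1 the lowest library. Its log2 fold change was -0.0854 without that library, -0.95 when DOX-positive replicate 2 was left out and -0.25 when DOX-negative replicate 3 was. The LXR receptors did not pass. NR1H2 (LXR beta) had a log2 fold change of 0.011 (SE 0.0938, adjusted p = 0.949). NR1H3 (LXR alpha) was at 30, 34 and 32 counts without DOX and 57, 41 and 35 with DOX, CPM groups that did not overlap, with a log2 fold change of 0.49 (SE 0.266, adjusted p = 0.187).

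The other genes of the pathway, a list of 25, moved in both directions. Of the 24 tested (CH25H was too low), 5 rose and 6 fell, with a median log2 fold change of 0.0243. That is 45.8% past the threshold, against 26.7% of all genes tested in either direction (13% higher and 13.7% lower). SREBP release depends on 2 Golgi proteases, and both transcripts fell. MBTPS1 (site-1 protease) fell from 189.1, 178.7 and 184.0 CPM to 113.3, 113.2 and 116.9 CPM (log2 fold change -0.68, SE 0.0627, adjusted p = 3.94e-08), and MBTPS2 (site-2 protease) had a log2 fold change of -0.32 (SE 0.0858, adjusted p = 0.00876), a call lost without DOX-positive replicate 1 (adjusted p = 0.0716). LBR, a lamin B receptor with the same sterol C14-reductase activity as TM7SF2, fell while TM7SF2 rose. LBR went from 149.7, 152.3 and 161.4 CPM to 95.8, 95.5 and 100.2 CPM (log2 fold change -0.67, SE 0.0651, adjusted p = 9.69e-08). On the rescaled TPM, LBR was the higher of the 2 without DOX (107.7 ± 2.21 against 67.0 ± 6.22). With DOX it was the lower (66.6 ± 2.37 against 88.6 ± 6.72). SCARB1, the receptor for selective uptake from high-density lipoprotein, fell with a log2 fold change of -0.41 (SE 0.0721, adjusted p = 0.000225). VLDLR, a lipoprotein receptor, and PDSS1, which makes the side chain of coenzyme Q, also fell, with log2 fold changes of -0.29 and -0.35. The PDSS1 call was narrow (adjusted p = 0.0408) and was lost with DESeq2 (0.0747), with no filter (0.0544), with the replicate block (0.0701), with thinning (0.107) and without any 1 of the 6 libraries (0.0521 to 0.147).

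The rises in that list were SMPDL3A, TMEM97, DHDDS, RNF139 and LIPA. SMPDL3A, an LXR target that encodes a secreted phosphodiesterase, had a log2 fold change of 0.66 (SE 0.181, adjusted p = 0.00945) at 74 to 169 counts, and the call was lost without DOX-positive replicate 1 (adjusted p = 0.0823). TMEM97, an NPC1-binding membrane protein and sterol-responsive gene, rose from 114.8, 112.2 and 123.5 CPM to 165.9, 171.8 and 160.1 CPM (log2 fold change 0.51, SE 0.0655, adjusted p = 5.33e-06). DHDDS, which extends farnesyl diphosphate towards dolichol, had a log2 fold change of 0.47 (SE 0.104, adjusted p = 0.00164). RNF139, a ubiquitin ligase of the endoplasmic reticulum, and LIPA, the lysosomal acid lipase that frees cholesterol from its esters, had log2 fold changes of 0.42 and 0.31. RNF139, LIPA, VLDLR, PDSS1 and MBTPS2 were named because they complete these counts, after their values were seen.

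The promoters of the 31 genes were searched for motifs. RefSeq promoters on GRCh38.p14, reaching from 250 bases before to 50 bases after the start, were matched for 27 of the 31 genes (ACAT2, FDFT1, SQLE and ABCG1 had none in the table). They were searched on both strands for CCAAT, bound by NF-Y, GGGCGG, bound by SP1, CACGTG, an E-box, and TCACNCCAC, the letters of a classical sterol response element. CCAAT occurred in 19 of 27 genes (70.4%) against 39.7% of all genes with a promoter, and was present in 12 of the 15 matched genes that rose and 7 of the 12 that did not pass. GGGCGG occurred in 26 of 27 (96.3%, against 48.3%) and CACGTG in 5 of 27 (18.5%, against 8.77%). The shares of all genes cover 27305 genes with a promoter and were not filtered by expression. The 27 matched genes had all passed the filter on low counts, so the 2 sets are unlike. Among the genes that rose and those that did not pass, GGGCGG occurred in 14 of 15 and 12 of 12, CACGTG in 3 of 15 and 2 of 12, and TCACNCCAC in 0 of 15 and 1 of 12. TCACNCCAC matched only SREBF2 among the 27 (1.39% of all genes); for the other genes this says only that these letters were not in this window. The last 180 bases before the start are shown for the strongest riser of the early enzymes, for MVD with its repeated CCAAT, for the regulator and the exporter that rose, and for SREBF2 as the gene with the sterol response element letters. They lie at chr5:43313413-43313592 (HMGCS1, minus strand), chr16:88663092-88663271 (MVD, minus strand), chr7:155297698-155297877 (INSIG1, plus strand), chr9:104928156-104928335 (ABCA1, minus strand) and chr22:41832925-41833104 (SREBF2, plus strand). Each is upstream of the annotated transcript and is written 5′ to 3′ on the gene's strand, with matches to the 4 motifs in capitals (ATTGG and CCGCCC are CCAAT and GGGCGG on the other strand, and in INSIG1 a pair of GGGCGG matches share a base).
HMGCS1: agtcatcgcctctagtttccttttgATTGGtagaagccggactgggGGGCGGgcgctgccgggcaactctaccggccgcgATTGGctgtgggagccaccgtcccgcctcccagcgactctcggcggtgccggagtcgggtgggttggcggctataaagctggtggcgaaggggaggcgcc
MVD: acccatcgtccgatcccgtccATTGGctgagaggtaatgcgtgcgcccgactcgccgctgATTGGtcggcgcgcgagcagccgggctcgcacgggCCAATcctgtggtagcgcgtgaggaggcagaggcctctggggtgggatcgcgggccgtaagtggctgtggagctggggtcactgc
INSIG1: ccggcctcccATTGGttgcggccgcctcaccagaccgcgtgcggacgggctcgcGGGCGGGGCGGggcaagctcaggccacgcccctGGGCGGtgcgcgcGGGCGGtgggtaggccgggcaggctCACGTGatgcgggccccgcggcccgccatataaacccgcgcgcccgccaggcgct
ABCA1: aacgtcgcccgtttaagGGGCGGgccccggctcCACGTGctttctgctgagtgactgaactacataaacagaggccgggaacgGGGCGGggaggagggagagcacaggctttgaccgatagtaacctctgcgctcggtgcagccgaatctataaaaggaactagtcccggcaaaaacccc
SREBF2: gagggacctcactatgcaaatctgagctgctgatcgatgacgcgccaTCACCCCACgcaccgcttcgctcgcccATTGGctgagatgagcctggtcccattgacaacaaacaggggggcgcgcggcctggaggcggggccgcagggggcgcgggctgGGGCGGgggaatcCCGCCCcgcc

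HMGCS1 and MVD, the largest rises among the enzymes, held 2 and 3 CCAAT matches in these 180 bases. INSIG1 held 1 CCAAT, 4 GGGCGG and 1 CACGTG match. ABCA1 held no CCAAT in its whole window and its 180 bases carried 2 GGGCGG and 1 CACGTG. SREBF2, which did not pass, held the sterol response element letters beside a CCAAT match. A match of letters is a description and not evidence of binding.

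**Figure D3:**
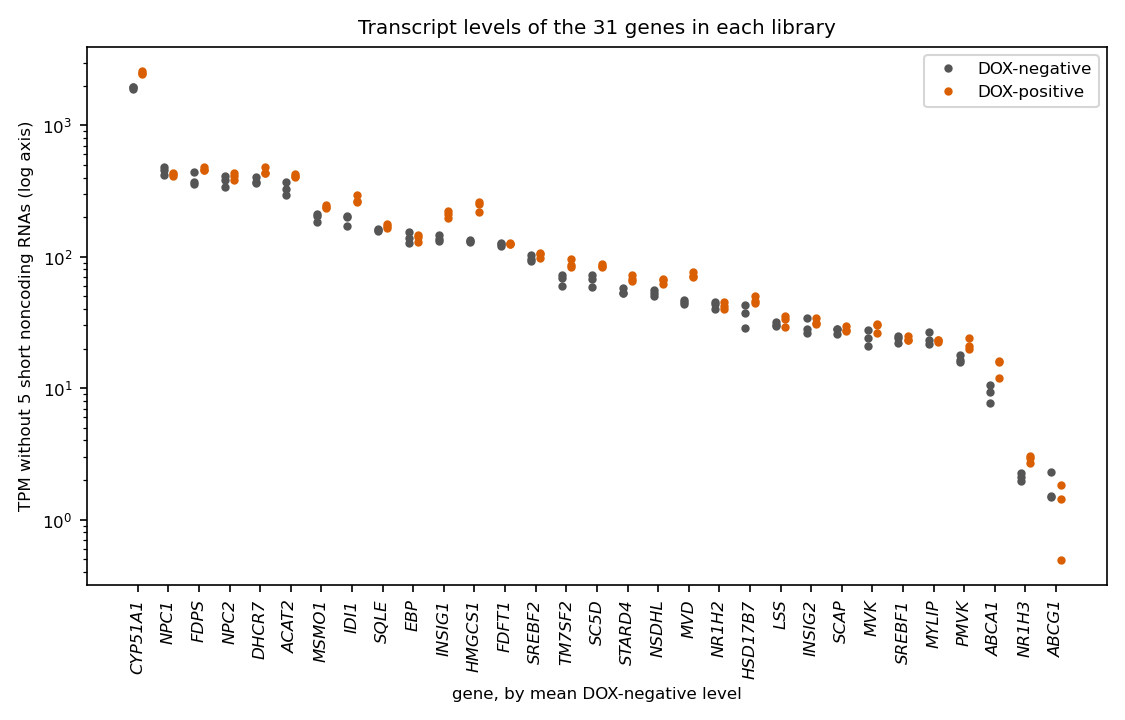
TPM rescaled without 5 short noncoding RNAs (log axis) of the 31 genes in each of 3 DOX-negative and 3 DOX-positive libraries, ordered by mean DOX-negative level; each point is 1 library. CYP51A1 stands above all others, and ABCA1, NR1H3 and ABCG1 are the only genes with a DOX-negative mean under 10 TPM.

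Levels were compared between genes per transcript length, on the rescaled TPM. CYP51A1 was the most abundant at 1928 ± 48.3 TPM without DOX and 2509 ± 51.6 TPM with DOX. Its DOX-negative level was 4.24 times that of NPC1, the next gene (454.4 ± 31.4 TPM), and stood at the 99.8th percentile of genes. FDPS, DHCR7, NPC2 and ACAT2 followed between 331.1 and 390.6 TPM, and the ranges of the 3 DOX-negative libraries overlapped for each neighbouring pair among NPC1, FDPS, DHCR7, NPC2 and ACAT2. The lowest were ABCA1 at 9.20 ± 1.44, NR1H3 at 2.11 ± 0.145 and ABCG1 at 1.76 ± 0.453 TPM, the last pair overlapping. Of the 30 neighbouring pairs in the order of DOX-negative levels, 12 had ranges over the 3 libraries that did not overlap and 18 had ranges that did. HMGCS1, at 130.9 ± 2.54 TPM without DOX, lay below SQLE (160.3 ± 2.86) and MSMO1 (199.8 ± 14.7). With DOX it was at 243.2 ± 21.6 TPM, above SQLE (171.3 ± 5.95) and within its own spread of MSMO1 (240.5 ± 7.15).

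CYP51A1 (chr7:92112153-92134803, RefSeq, GRCh38.p14) took 0.228%, 0.220% and 0.235% of all counts in the libraries without DOX and 0.295%, 0.299% and 0.288% in those with DOX. Genes beside it were looked at after its level was seen. Of the 4 nearest tested coding genes on each side, 5 of 8 stood above the 90th percentile of DOX-negative levels. Their starts lay up to 1516 kb to the left and 374.9 kb to the right of the CYP51A1 start. ANKIB1 stood at the 98.8th and KRIT1 at the 97.7th. These percentiles were taken over all 25546 genes with TPM values, undetected ones included. The neighbours had passed the filter on low counts, and the share of tested genes above that level was not computed. With DOX, 1 of the 8 rose (AKAP9, log2 fold change 0.29, adjusted p = 0.00828), 2 fell (MTERF1, -0.30, adjusted p = 0.00367, and CDK14, -0.63, adjusted p = 0.000157), and 5, ANKIB1 and KRIT1 among them, did not pass. Over all genes tested, 13% were higher and 13.7% were lower.

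Reads of some of these genes may be shared with other features, since the counting step's use of strand is not stated. In GENCODE 29, 3 of the 31 genes share exon bases on their own strand with another gene (CYP51A1, TM7SF2 and NPC2), and 14 overlap a gene on the other strand, 7 of them a gene that was itself tested, such as TCP1 for ACAT2, MMAB for MVK and ACP2 for NR1H3. FDPS, CYP51A1 and HSD17B7 have 8, 3 and 2 annotated pseudogenes, so their values carry that uncertainty.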

How the data were processed

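RNA from triplicate cultures was made into stranded poly(A) libraries (TruSeq Stranded mRNA). The authors deposited whole-number read counts per gene (28008 genes) and TPM values (25546 genes, scaled by the authors to 1 total per library). The submitters' processing notes name STAR, DESeq2 and GRCh38 (hg38); the counting step, its strand setting and the annotation are not given in the sources used here. Groups and replicate numbers came from the sample titles, and columns were matched by DOX state and number although they abbreviate the line differently.

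Counts were tested in R 4.3.3 with edgeR 4.0.16 (filterByExpr, 14292 genes; TMM factors 0.986 to 1.03; glmQLFit and glmQLFTest, two-sided, group only), adjusted by Benjamini-Hochberg over all genes tested, with a threshold of 0.05. SE was taken as |log2 fold change| over the root of the F statistic. Totals ranged from 15092691 to 23243713 counts, so 3 counts, taken as the floor, corresponded to 0.129 to 0.199 CPM; this covers counting error only. Replicates differed by more than sampling noise (chi-square per degree of freedom 3.65 to 19.0), so each counted once. Levels between genes used TPM rescaled without RN7SL1, RN7SL2, RN7SL3, RN7SK and RPPH1, with no test. The fits were checked on simulated counts. Alternatives were another tool (DESeq2 1.42.0), scaling by RLE factors or by totals only, a filter left off or raised to 10 counts in each library, a block for replicate number, thinning to the smallest library, limma 3.58.1 (limma-trend) on log2(TPM + 1) and log2(TPM + 0.1), without a filter and on rescaled TPM, and each library left out.

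The 31 genes, the 25 related genes and the markers were chosen with earlier results of these data known. All 31 genes and MUC1 were named, with the 3 largest rises and 3 largest falls past the threshold among the related genes. Some genes, among them some of the markers, are not reported here.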

Additional observations from a re-analysis of the deposited data

How the results depend on the processing

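Counts of genes past the threshold kept within 1.5 times of those given under every alternative on counts and on the rescaled TPM, and every call among the 31 genes was in the higher direction there. Leaving out each library in turn gave 14 to 17 of the 31 genes, 8 to 12 related genes, 2784 to 3645 genes in all and a MUC1 log2 fold change of -2.62 to -2.41. On the deposited TPM, limma called 0 of the 31 genes (0 higher) with log2(TPM + 1), with log2(TPM + 0.1) and without a filter, where 1, 1 and 0 had an unadjusted p under 0.05; edgeR called 16 and DESeq2 15. Related genes past the threshold were then 2, 2 and 0, and all genes 443 (30 higher, 413 lower), 408 (29 higher, 379 lower) and 0 (2888 unadjusted). The MUC1 log2 fold change without a filter was -2.48 (adjusted p = 0.112). Log2 differences changed sign on log2(TPM + 1), with or without a filter, for ACAT2 -0.0438, DHCR7 -0.125, EBP -0.366, FDFT1 -0.351, FDPS -0.117, INSIG2 -0.222, LSS -0.247, MSMO1 -0.0988, MVK -0.105, NPC2 -0.251, NR1H2 -0.367, NSDHL -0.0566, SCAP -0.296, SQLE -0.27, SREBF1 -0.341, SREBF2 -0.276 and STARD4 -0.033. On log2(TPM + 0.1) they were ACAT2 -0.044, DHCR7 -0.125, EBP -0.371, FDFT1 -0.357, FDPS -0.118, INSIG2 -0.234, LSS -0.261, MSMO1 -0.0995, MVK -0.107, NPC2 -0.252, NR1H2 -0.383, NSDHL -0.0579, SCAP -0.316, SQLE -0.273, SREBF1 -0.367, SREBF2 -0.28 and STARD4 -0.033. The median of all genes moved to -0.321, -0.386 and -0.217 in these 3 settings. None of these sign changes passed the threshold. Genes near 0 changed sign elsewhere: with total counts EBP -0.018, NR1H2 -0.024 and SREBF1 -0.0105; with thinning EBP -0.0268, NR1H2 -0.0342 and SREBF1 -0.00918; on the rescaled TPM EBP -0.00299, NR1H2 -0.0152 and SREBF1 -0.000967. With libraries left out, EBP ranged from -0.0574 to 0.124, NR1H2 from -0.0565 to 0.0591, SREBF1 from -0.00472 to 0.0573 and MYLIP from -0.0684 to 0.0444. With the short noncoding RNAs left out of TPM, 15 of the 31 genes passed, and the cause of the remaining changes was not tested.

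The groups share replicate numbers, but nothing in the labels ties the numbers to a shared day or batch. Across genes, the departures from the group mean of the 2 libraries with the same number correlated at -0.0189, -0.095 and -0.0273 for numbers 1 to 3, so the numbers were not taken as pairs. With the replicate block, 15 of the 31 genes, 10 related genes and 3158 genes in all passed, and the MUC1 log2 fold change was -2.52; PMVK was the gene of the 31 that no longer passed. Depth limits ABCG1 (15 to 61 counts) and NR1H3 (30 to 57 counts) most.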
